A study of Mus musculus with 24 samples.

Results

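Normal mammary glands of FVB mice were compared between week 10 and week 8 of age, with 3 mice at each week. These 6 samples were chosen by strain and week, and they are 6 of the 24 samples of the series, which holds 3 FVB control mice and 3 PyMT mice at each of weeks 6, 8, 10 and 12. The FVB mice were homozygous FVB females without a transgene, and no treatment is given for either week. The PyMT mice, used here beside 1 comparison only, were F1 females of the same background that carry 1 copy of the polyoma middle T antigen under the MMTV promoter, which drives it in mammary epithelium. Total RNA of snap-frozen tissue was depleted of ribosomal RNA and sequenced from directional libraries, and the deposited values are raw read counts per gene. Because the glands are age-matched controls for the tumors, the question here is how much the normal gland itself differs over these 2 weeks.

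The mouse mammary gland is a tree of ducts in a pad of fat. At puberty ovarian hormones drive the ducts to grow out from end buds, bulbous tips of dividing epithelial cells, until the ducts fill the pad, after which the tree of a virgin female is fairly quiet apart from the estrous cycle. A duct has an inner layer of luminal cells and an outer layer of basal, contractile myoepithelial cells, and it lies in a stroma of adipocytes, fibroblasts, collagen-rich matrix, vessels and immune cells. A whole gland is a mixture of all of these, so fewer cells of a type and less RNA per cell cannot be told apart in the values below.

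The total count was 7413790 to 7996461 at week 8 and 8126373 to 11928398 at week 10. Of 37991 genes, 14918 reached a CPM (the count scaled to library size) of 1 in no fewer than 12 of the 24 samples and were tested. The number of genes by read count had a peak well above 1 in 5 of the 6 libraries, at 18 and 8 reads in week 8 replicates 1 and 2 and at 12, 13 and 19 reads in the 3 week 10 replicates, while week 8 replicate 3 had none. This peak is called the packet size here, because in such a library the number of genes fell after 1 read and rose again towards that many. At 1 read there were 690 genes in week 8 replicate 1, against 145 at 18 reads. Week 10 replicate 3 had 464 genes at 1 read, against 116 at 19. Whether duplicate reads were removed before counting is not given in the sources used here, and what made the packets was not tested. Low values of a part of the genes named below are therefore set against the size of 3 packets as well. This size is 68.1 and 27.9 normalized counts (counts over DESeq2's size factor) in week 8 replicates 1 and 2 and 25.9, 39.1 and 89.2 in the week 10 replicates. Other named genes have low values without such a remark, and their fold changes may rest on values under these limits. Emr1, Cd68, Fos and Rpl5, for example, reached down to 56.8, 55.5, 47.9 and 57.9. Of the tested genes, 16 to 1061 had no read in a week 8 library and 407 to 1631 in a week 10 library, most of all in week 10 replicate 3. That library also stood apart in its content, since 13.4% of its counts fell on 15 tested genes of a skeletal muscle list, against 0.00407% to 0.0473% in the other 5. Pearson's r between libraries over the tested genes was 0.795 to 0.916 within week 8, 0.728 to 0.850 within week 10 and 0.744 to 0.906 between the weeks. No 2 libraries were copies, since the chi-square per gene between libraries was 29.1 or more. The labelled tissue was checked by its epithelial markers, and keratin 8 and keratin 5 were present in all 6 libraries.

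**Figure D1:**
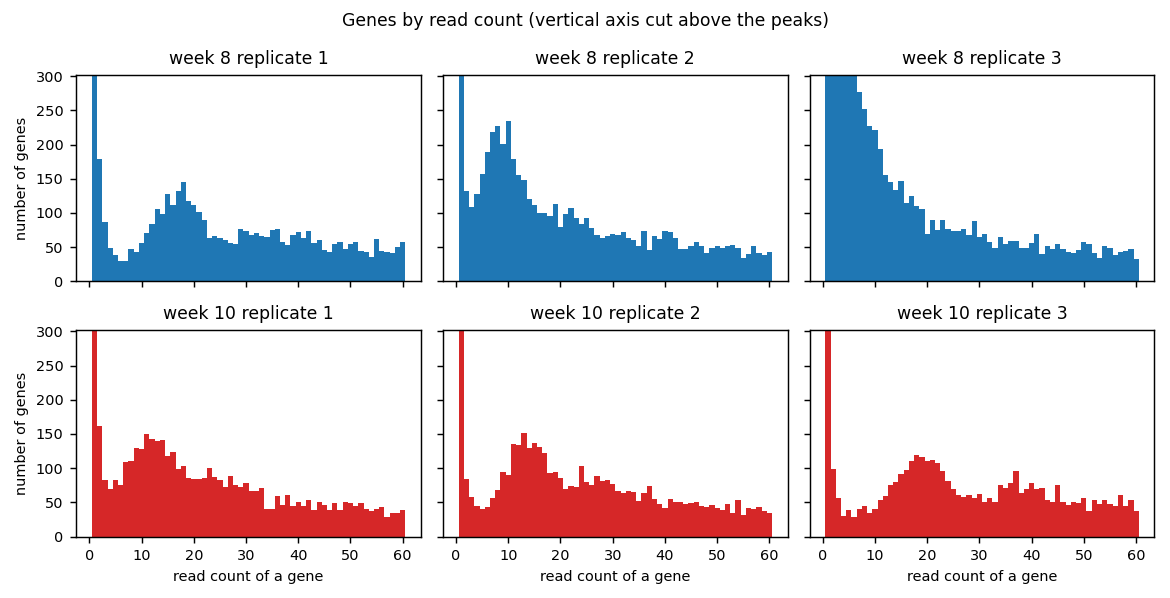
Number of genes (vertical axis, cut above the peaks) by the read count of a gene (horizontal axis) in the 6 FVB libraries, week 8 above and week 10 below. A peak at 8 to 19 reads is seen in 5 libraries, while the numbers in week 8 replicate 3 fall from 1 read on. The bars at 1 read are cut off by the axis.

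No gene passed the test between week 10 and week 8. A differentially expressed gene (DEG) needed a Benjamini-Hochberg adjusted p under 0.05 in the quasi-likelihood test of edgeR together with a more than 2-fold difference, and 0 of the 14918 tested genes (0%) did, with a smallest adjusted p of 0.9998. An unadjusted p under 0.05 was found for 342 genes (2.29%), of which 191 (1.28%) were higher and 151 (1.01%) lower at week 10. edgeR's exact test called 0 genes as well (364 at an unadjusted p under 0.05), limma voom with sample quality weights called 0 (760), the likelihood ratio test called 2 (432) and DESeq2 called 1 (390). Of all tested genes, 49.7% had a log2 fold change above 0 and 50.3% below 0. In 511 genes (3.43%) all 3 week 10 samples lay above all 3 week 8 samples, and in 686 (4.6%) all lay below. The median gene differed by 0.328 on the log2 scale between the week means, against a median SD within a week of 0.561, and 3719 genes (24.9%) differed by more than that SD. Nothing in the labels says more of the replicates than their week and number, and the methods give 3 mice per time point.

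The absence of calls does not show that the genes were equal, and what the 6 libraries could limit depended on the level of the gene. The 95% interval of the log2 fold change lay within a 2-fold change in either direction for 4517 genes (30.3%). No gene of the 4545 with a mean normalized count under 100 was bounded this closely. The number was 521 of 4161 (12.5%) from 100 to 300, 2637 of 4372 (60.3%) from 300 to 1000, 1169 of 1521 (76.9%) from 1000 to 3000, and 190 of 319 (59.6%) above 3000. A change of more than 2-fold was thus left within the interval for most weakly expressed genes, and for a part of the most abundant genes as well.

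Among genes whose normalized count averaged 100 or more and was never 0, 391 lay higher and 418 lower at week 10 without overlap, and the 15 with the smallest unadjusted p in each direction are described here. None of these 30 passed the test (Benjamini-Hochberg adjusted p = 0.9998 for each, quasi-likelihood test of edgeR), and the separation of their groups is how they were picked. The genes that were higher at week 10 include 3 secreted proteins of the stroma. Ccl11 (eotaxin, which attracts eosinophils) had normalized counts of 124, 123 and 193 at week 8 and 307, 307 and 601 at week 10, a log2 fold change of 1.47 (SE 0.39, n = 3 and 3). Rarres2, which encodes the adipocyte-secreted chemoattractant chemerin, had 992, 797 and 860.0 at week 8 and 1381, 1256 and 1577 at week 10, and its log2 fold change of 0.68 (SE 0.21, n = 3 and 3) was the smallest of the 15. Plau, the urokinase that activates plasminogen around cells, had 302, 162 and 249 at week 8 and 629, 368 and 493 at week 10, a log2 fold change of 1.07 (SE 0.34, n = 3 and 3). In all 3 the lowest week 10 mouse was above the highest week 8 mouse, by a wide margin in Ccl11 and a narrow one in Plau.

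Flrt2, a membrane protein of cell adhesion and axon guidance on chr12:96930436-97023425 (mm9), headed the genes that were higher at week 10. Its normalized counts were 149, 300.1 and 259.9 at week 8 and 521, 586 and 778 at week 10, with a log2 fold change of 1.41 (SE 0.33, n = 3 and 3; 95% interval 0.66 to 2.17). Clca2, of the family of calcium-activated chloride channel regulators, had 450.4, 534 and 666 at week 8 and 930.0, 1126 and 1209.7 at week 10, a log2 fold change of 0.99 (SE 0.23, n = 3 and 3), and its near copies within that family make its count less certain. Mapk8, the stress-activated kinase JNK1, had 392, 329 and 394 at week 8 and 595, 754 and 726 at week 10, a log2 fold change of 0.90 (SE 0.23, n = 3 and 3). The 3 mice of each week lay close together in Mapk8 and the gap between the weeks was wider than the spread within either. Dbp, a transcription factor whose level cycles with the circadian clock, had 623, 637 and 492 at week 8 and 944, 892 and 1079.8 at week 10, a log2 fold change of 0.74 (SE 0.22, n = 3 and 3). The log2 fold changes were 1.06 for Zbtb6 (a zinc finger protein), 1.14 for Cisd2 (an iron-sulfur protein of mitochondria and endoplasmic reticulum), 0.96 for Cpeb2 (a regulator of mRNA polyadenylation and translation), 0.99 for Cpped1 (a phosphatase), 1.51 for Fam124a and 1.06 for Utp15 (a factor of ribosomal RNA processing). Tuba4a, an alpha tubulin, and Rragd, a Rag GTPase that relays amino acid levels to mTORC1, took their size from week 10 replicate 3, the library rich in muscle transcripts. Tuba4a had 160.2, 129 and 175 at week 8 and 334, 295 and 3072 at week 10, and its log2 fold change of 2.99 was 1.02 at the least over the 21 alternative settings. Rragd had 11.4, 37.2 and 46.3 at week 8 and 58.9, 56.1 and 1693 at week 10, where week 8 replicate 1 lies under 3 packets, and its log2 fold change of 4.24 was 0.47 at the least.

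C1qtnf6, which encodes a secreted protein related to C1q and adiponectin and lies on chr15:78353776-78360055 (mm9), had the smallest unadjusted p among the genes that were lower at week 10. Its normalized counts were 242, 257 and 475 at week 8 and 74.0, 109 and 61.0 at week 10, a log2 fold change of -1.99 (SE 0.43, n = 3 and 3; 95% interval -2.98 to -0.99). The weeks did not overlap, though the value of week 10 replicate 3 lies under the size of 3 packets in that library. Creb3l1, a membrane-bound transcription factor known for driving collagen genes, had 298, 233 and 245 at week 8 and 134, 75.1 and 50.1 at week 10, a log2 fold change of -1.56 (SE 0.46, n = 3 and 3), and here too week 10 replicate 3 lies under 3 packets. Cntn1, a neuronal cell adhesion protein, had 235, 195 and 306 at week 8 and 111, 25.0 and 23.5 at week 10, a log2 fold change of -2.18 (SE 0.68, n = 3 and 3), and the 2 lowest of these values lie under the size of 3 packets in their libraries, 39.1 and 89.2. Meg3, a maternally expressed long non-coding RNA, had 743, 1771 and 1285 at week 8 and 478, 661 and 725 at week 10, a log2 fold change of -1.03 (SE 0.33, n = 3 and 3), with week 8 replicate 1 close to the week 10 mice. Nras, a Ras GTPase, had 1043, 1019 and 841 at week 8 and 646, 594 and 534 at week 10, a log2 fold change of -0.71 (SE 0.21, n = 3 and 3). Mmp15, a membrane-bound matrix metalloproteinase, had 1082, 1194 and 1424 at week 8 and 867, 725 and 448 at week 10, a log2 fold change of -0.85 (SE 0.28, n = 3 and 3). The weeks were clearly apart in Nras, while week 10 replicate 1 approached the week 8 mice in Mmp15.

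The log2 fold changes of the signalling genes in this group were -0.81 for Sufu, a negative regulator of Hedgehog signalling, and -1.13 for S1pr3, a receptor of sphingosine 1-phosphate. They were -0.75 for Sin3b (a corepressor scaffold), -1.20 for Igsf9 and -0.79 for Igsf10 (both immunoglobulin superfamily proteins), -0.81 for Pnpla6 (a phospholipase), -0.65 for Tspan14 (a tetraspanin), -1.12 for Commd7 and -0.93 for Tmem176a. All 30 genes kept their sign under the 21 alternative settings, a direction that the choice of genes without overlap favors, and none was called under any. DESeq2 gave no p-value for Tuba4a and Rragd, so these could not be called in that setting. Between week 12 and week 6, the pair of FVB weeks that shares no mouse with this comparison, 9 of the 15 higher genes were above 0 (48.9% of all tested genes were) and 11 of the 15 lower genes were below 0 (51.1%). The smallest adjusted p of the 30 genes in that comparison was 0.857 (quasi-likelihood test of edgeR, Benjamini-Hochberg). There Flrt2 was higher at week 12 by a log2 fold change of 0.82 and C1qtnf6 lower with -1.25, whereas Dbp had -0.17.

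**Figure D2:**
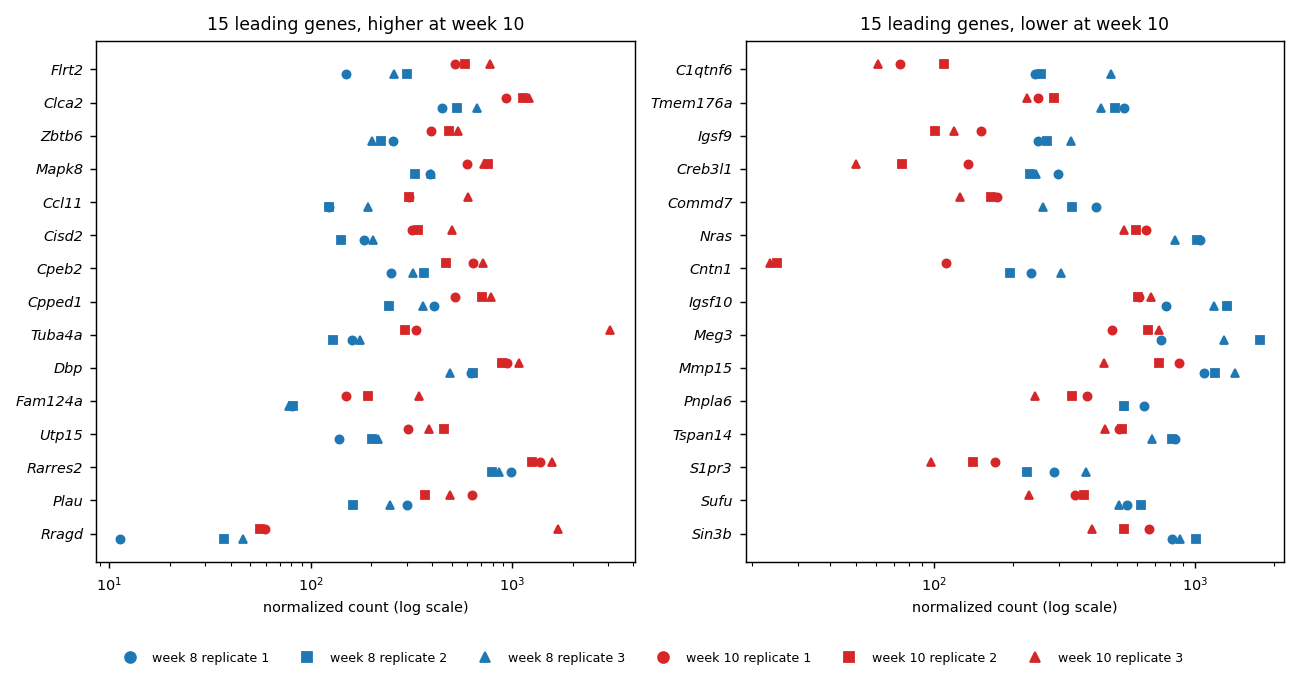
Normalized counts on a log axis of the 15 leading genes in each direction, each point 1 mouse (blue week 8, red week 10, symbol by replicate). The weeks do not overlap because the genes were picked so, and week 10 replicate 3 stands far from the other week 10 mice in Tuba4a and Rragd.

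Lists of cell type markers and programs were read gene by gene, with 421 different genes tested. None was called, 9 (2.14%) were higher at week 10 without overlap against 3.43% of all tested genes, and 3 (0.713%) were lower without overlap against 4.6%. An unadjusted p under 0.05 was found for 21 (4.99%) against 2.29%, and 15 of these 21 belong to the skeletal muscle list. Below, a list level is the mean log2(normalized count + 1) over the tested members in a library, and a list median is the median log2 fold change of its members, beside a median of -0.004 over all tested genes.

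Epithelial markers had lower means at week 10, by less than mice of the same week differed. The luminal list had levels of 8.54, 9.29 and 9.71 at week 8 and 9.13, 9.14 and 8.45 at week 10. Of its 20 members, 16 were below 0 and 4 above, none was called, and the list median was -0.40, or -0.15 without week 10 replicate 3. It was -0.36 when week 8 replicate 1 was left out too. Krt8, a keratin of luminal cells, had normalized counts of 489, 1489 and 2633 at week 8 and 1281, 1649 and 657 at week 10, a log2 fold change of -0.35 (SE 0.56, n = 3 and 3; 95% interval -1.63 to 0.92). Its partner Krt18 had a log2 fold change of -0.69 and Krt19 one of -0.51. In each of these 3 keratins week 8 replicate 3 was the highest mouse and either week 8 replicate 1 or week 10 replicate 3 the lowest. In the basal and myoepithelial list, 10 of 14 members were below 0, with a median of -0.42, or -0.14 without week 10 replicate 3. With week 8 replicate 1 left out too the median was -0.42 again. Krt5, a keratin of basal cells, had 233, 551 and 1005 at week 8 and 458, 652 and 111 at week 10, and its partner Krt14 had 291, 648 and 898 at week 8 and 524, 602 and 141 at week 10. The lowest mouse for both was week 10 replicate 3 and the next lowest was week 8 replicate 1, so the weeks overlapped. Krt17, another basal keratin, had a log2 fold change of 0.38. Actg2, a smooth muscle actin of myoepithelial cells that was singled out after its values were seen, was lower without overlap, with 89.6, 87.2 and 131 at week 8 and 59.7, 41.1 and 1.56 at week 10, of which the last value is under 3 packets, and its log2 fold change of -1.56 (SE 1.05, n = 3 and 3; 95% interval -3.96 to 0.83) included 0.

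Cell cycle genes differed more between mice of 1 week than between the weeks. The level of the cell cycle and DNA replication list was 4.07, 7.12 and 7.77 at week 8 and 5.81, 7.49 and 3.96 at week 10, so the lowest and the highest mouse of each week differed by more than 3 on the log2 scale. Of its 40 members, 25 were below 0 and 15 above, none was called, and the list median of -0.36 was 0.01 without week 10 replicate 3. Without week 8 replicate 1 as well it was -0.36 again, with 12 of 40 above 0. Mki67, the proliferation marker Ki-67, had normalized counts of 188, 1206 and 2169 at week 8 and 327, 1119 and 199 at week 10, a range of 11.5-fold over the 6 mice. Top2a, the topoisomerase of replicating cells, had 87.0, 648 and 939 at week 8 and 201, 813 and 114 at week 10. Ccnb1, the mitotic cyclin B1, had 0, 52.3 and 134 at week 8 and 7.19, 0 and 0 at week 10, where values of 0 lie in libraries of large packet size. For both Mki67 and Top2a, week 8 replicates 2 and 3 and week 10 replicate 2 were high and the other 3 mice low, and the log2 fold changes were -1.11 (SE 0.85, n = 3 and 3) and -0.56 (SE 0.88, n = 3 and 3).

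The receptors of ovarian and pituitary hormones overlapped between the weeks. Esr1, the estrogen receptor, had normalized counts of 1584, 1116 and 1257 at week 8 and 1674, 1129 and 2494 at week 10, a log2 fold change of 0.42 (SE 0.31, n = 3 and 3; 95% interval -0.29 to 1.14). Pgr, the progesterone receptor, had 303, 284 and 529 at week 8 and 387, 371 and 374 at week 10, with 0.03 (SE 0.31, n = 3 and 3; 95% interval -0.68 to 0.73). Prlr, the prolactin receptor, had 5679, 4746 and 3948 at week 8 and 5558, 6089 and 4347 at week 10, with 0.16 (SE 0.27, n = 3 and 3; 95% interval -0.45 to 0.77). The intervals of Pgr and Prlr excluded a 2-fold change in either direction. Over the 19 tested members of the hormone list, 11 were above 0 and 8 below, with a median of 0.05, and -0.04 with library size as the only scaling. Of 22 tested genes of pubertal branching and the end bud, 5 were above 0 and 17 below, with a median of -0.18, and the intervals of 12 lay within 2-fold. Fgf10, the stromal ligand of the epithelial receptor, had 709, 537 and 524 at week 8 and 1032, 809 and 418 at week 10, and that receptor, Fgfr2, had 1116, 1998 and 1983 at week 8 and 1221, 1877 and 1277 at week 10. Both overlapped between the weeks, and Fgf7, a related ligand, lay at 0 to 57.0. Csf1, the macrophage growth factor, was the only gene of the branching list that was higher without overlap, with 438, 506 and 457 at week 8 and 674, 600.2 and 674 at week 10, a log2 fold change of 0.48 (SE 0.21, n = 3 and 3; 95% interval -0.01 to 0.97); it was singled out after its values were seen.

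Milk protein genes differed widely between mice of the same week. Of 14 tested members, 7 were above and 7 below 0, with a median of -0.07. Without week 10 replicate 3 the median was -0.29, with 4 of 14 above 0, and with counts divided by the packet size it was 0.05. Without both week 10 replicate 3 and week 8 replicate 1 it was 0.33. The caseins Csn1s1, with 208, 2196 and 400.0 at week 8 and 286, 242 and 1289 at week 10, and Csn2, with 34.1, 786 and 54.2 at week 8 and 34.5, 82.2 and 199 at week 10, were highest in week 8 replicate 2 and next in week 10 replicate 3. The Csn2 value of 34.1 lies under the size of 3 packets in week 8 replicate 1, 68.1. Csn1s2a, a further casein, had a log2 fold change of -0.60 (SE 1.14, n = 3 and 3).

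White fat markers lay above 2 of the 3 week 8 mice at week 10, by small differences. The white adipocyte list had levels of 13.24, 12.19 and 12.39 at week 8 and 12.79, 12.93 and 12.99 at week 10, with 16 of 18 members above 0, none called and a median of 0.25, or 0.14 without week 10 replicate 3. When week 8 replicate 1 was left out too the median was 0.56, with 17 of 18 above 0. Adipoq, the adipocyte hormone adiponectin, had normalized counts of 8093, 5727 and 5253 at week 8 and 6202, 7257 and 9233 at week 10, a log2 fold change of 0.25 (SE 0.29, n = 3 and 3; 95% interval -0.41 to 0.92). Plin1, the coat protein of lipid droplets, had a log2 fold change of 0.23 and Fabp4, the fatty acid carrier of adipocytes, 0.25. The highest of the 6 mice exceeded the lowest by 1.76-fold in Adipoq, 1.92-fold in Plin1 and 1.94-fold in Fabp4. Week 8 replicate 1 was within or above the range of week 10 for these 3 genes, and the other 2 week 8 mice lay below that range. The list's level was 12.41, 11.84 and 12.27 at week 6 and 13.04, 12.59 and 13.17 at week 12.

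In contrast to these markers, lipid synthesis and thermogenesis genes ranged widely between mice of the same age. Fasn, the fatty acid synthase, had normalized counts of 262638, 112560.0 and 23554 at week 8 and 117994, 16241 and 220653 at week 10, a 16.2-fold range around a log2 fold change of only -0.16 (SE 0.97, n = 3 and 3; 95% interval -2.38 to 2.05). Acaca and Acacb, the acetyl-CoA carboxylases that make the substrate of Fasn and restrain fatty acid oxidation, ranged 12.3-fold and 10.1-fold. The 21 tested genes of fatty acid and triglyceride synthesis had a median of -0.12, with 5 above and 16 below 0. The median was -0.40 without week 10 replicate 3 and 0.24, with 15 of 21 above 0, when week 8 replicate 1 was left out too. Ucp1, the uncoupling protein of heat-producing adipocytes, had 7650.0, 756 and 6.78 at week 8 and 1184, 1607 and 5837 at week 10, and the 3 mice of week 8 alone span its whole range. Cidea, a lipid droplet protein of the same cells, had 4002, 427 and 82.5 at week 8 and 776, 681 and 3139 at week 10, and Dio2, the deiodinase that activates thyroid hormone there, had 418, 150.0 and 50.9 at week 8 and 159, 118 and 438 at week 10. Week 8 replicate 1 and week 10 replicate 3 were the 2 highest mice for Fasn, Acaca, Acacb, Ucp1, Cidea and Dio2. The brown adipocyte list had a median of 0.03, or -0.08 with library size as the only scaling. Without week 10 replicate 3 it was -0.92, with 0 of 10 members above 0. When week 8 replicate 1 was left out too it was 1.13, with 8 of 10 above 0. In the list of fatty acid oxidation and the TCA cycle the median was 0.04, or -0.09 with library size as the only scaling. It was -0.48 without week 10 replicate 3, with 0 of 20 members above 0. Without week 8 replicate 1 as well it was 0.51, with 18 of 20 above 0. Cpt1a, the gate of fatty acids into mitochondria, had a log2 fold change of -0.54, its partner Cpt2 one of -0.28, and the dehydrogenase Acadm one of 0.06. In the cholesterol synthesis list the median was 0.03, or 0.20 without week 10 replicate 3, with 0.03 for the epoxidase Sqle and 0.33 for the LDL receptor. Dhcr7, the last enzyme of the pathway, was higher without overlap, with 149, 195 and 181 at week 8 and 239, 238 and 387 at week 10, and was singled out after its values were seen.

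**Figure D3:**
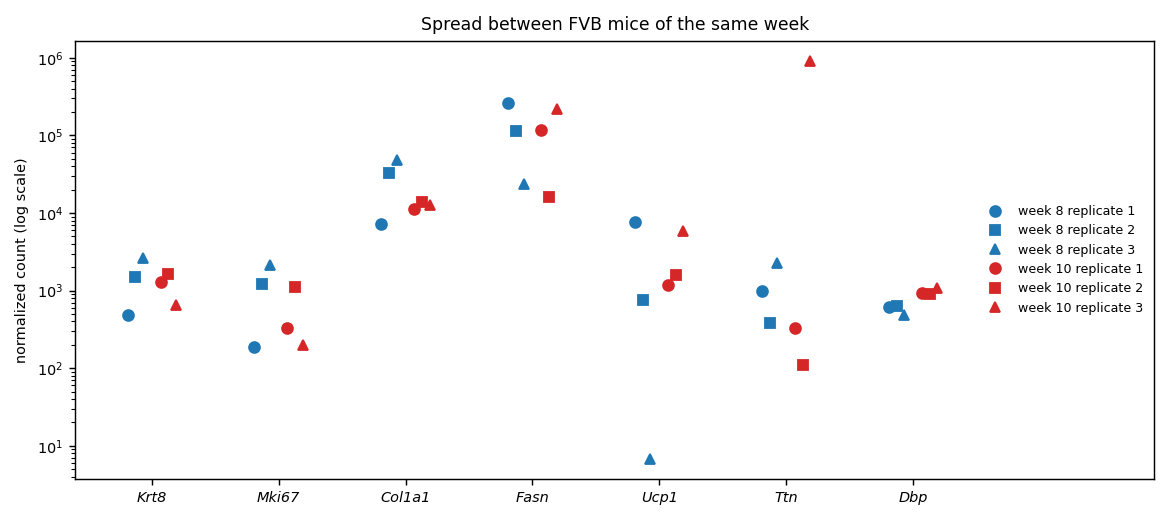
Normalized counts on a log axis of 7 genes in the 6 FVB mice (blue week 8, red week 10, symbol by replicate). Mice of the same week lie far apart in Mki67, Fasn and Ucp1, week 10 replicate 3 alone is high in Ttn, and the weeks are apart in Dbp.

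Collagen and other matrix genes lay lower at week 10, most of them against 2 of the 3 week 8 mice. Of the 26 members of the matrix list, 23 were below 0, none was called, and the median was -0.41, or -0.37 without week 10 replicate 3. It was -0.62 when week 8 replicate 1 was left out too. Col1a1, a chain of type I collagen, had normalized counts of 7266, 32864 and 47682 at week 8 and 11365, 13856 and 12565 at week 10, a log2 fold change of -1.21 (SE 0.58, n = 3 and 3; 95% interval -2.54 to 0.12). Col1a2, the other chain, had 8234, 33409 and 42765 at week 8 and 13387, 13158 and 12407 at week 10, and Col3a1, the type III chain, had 22249.9, 86273 and 84968 at week 8 and 36641, 38022 and 37453 at week 10. For all 3 the week 10 mice lay close together, week 8 replicates 2 and 3 lay above them, and week 8 replicate 1 lay below all the others. Eln, which encodes elastin, had the smallest unadjusted p of the list, with 476, 1400.2 and 1333 at week 8 and 362, 526 and 311 at week 10, a log2 fold change of -1.42 (SE 0.42, n = 3 and 3; 95% interval -2.37 to -0.46) and a Benjamini-Hochberg adjusted p = 0.9998 in edgeR's quasi-likelihood test. Lama4, a laminin chain of vessel basement membranes, was lower without overlap, with 5278, 4136 and 3945 at week 8 and 3678, 3535 and 3232 at week 10. Lrrc15, a membrane protein of matrix-producing fibroblasts and no member of the list, had 36.6, 1012 and 1083 at week 8 and 124, 96.2 and 92.3 at week 10, again lowest in week 8 replicate 1, and a log2 fold change of -2.76. That lowest value lies under the size of 3 packets in its library, 68.1. Eln, Lama4 and Lrrc15 were singled out after their values were seen.

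Fibroblast receptors varied less than the collagens. Pdgfra, a receptor of fibroblasts, varied little, with 2346, 2695 and 2929 at week 8 and 2694, 2388 and 2293 at week 10, a log2 fold change of -0.11 (SE 0.22, n = 3 and 3; 95% interval -0.61 to 0.40). Pdgfrb had a log2 fold change of -0.08 and Thy1, a surface glycoprotein that was again lowest in week 8 replicate 1, one of -0.36. The 12 fibroblast genes had 7 above and 5 below 0, with a median of 0.34 that became -0.04 without week 10 replicate 3. Gsn, the actin-severing protein gelsolin, was higher without overlap, with 42567, 20112 and 35417 at week 8 and 49025, 44013 and 47464 at week 10. Dpp4, a surface peptidase of adventitial fibroblasts, had 121, 341 and 175 at week 8 and 251, 318 and 1221 at week 10, a log2 fold change of 1.49 (SE 0.65, n = 3 and 3), and the weeks overlapped. In vessels, Pecam1 had a log2 fold change of 0.14, the cadherin Cdh5 -0.13 and the VEGF receptor Kdr 0.04, and 10 of the 15 endothelial genes had an interval within 2-fold, with a list median of -0.13, or -0.01 without week 10 replicate 3. Rgs5, a pericyte marker, had a log2 fold change of 0.25, Cspg4 -0.46 and Notch3 -0.37. Abcc9, a regulatory subunit of potassium channels of vessel wall cells, was higher without overlap, with 1013, 902 and 1072 at week 8 and 1389, 1297 and 2889 at week 10, a log2 fold change of 0.90 (SE 0.33, n = 3 and 3; 95% interval 0.15 to 1.65). Its highest value was that of week 10 replicate 3, the library rich in muscle transcripts. Of the 8 genes of this list, 2 had an unadjusted p under 0.05 in edgeR's quasi-likelihood test, and 0 did without that library. Des, the muscle filament desmin, which pericytes also contain, had 323, 133 and 155 at week 8 and 183, 154 and 12903 at week 10, high in week 10 replicate 3 alone. Gsn, Dpp4, Abcc9 and Des were singled out after their values were seen.

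No immune gene was called. The macrophage list had 8 genes above and 8 below 0, with 867, 1468 and 1479 at week 8 and 919, 1429.8 and 1664 at week 10 for Csf1r, the receptor of Csf1, and log2 fold changes of -0.32 for Emr1 (F4/80) and -0.38 for Cd68. The median was 0.03, or -0.14 with library size as the only scaling. It was -0.10 without week 10 replicate 3 and -0.32 when week 8 replicate 1 was left out too. Among antigen presentation genes of MHC class II, Cd74, the invariant chain, had a log2 fold change of 0.06, H2-Aa 0.03 and H2-Ab1 -0.21. Lymphocyte genes were low, with Cd22 of B cells at 0 to 12.0, and Cd4, Lck and Il7r of T cells at no more than 53.9, 78.2 and 87.6. Only 1 of 10 B cell and 5 of 18 T and NK cell genes were tested. The T and NK cell median was 0.57, or 0.62 without week 10 replicate 3 and 0.08 when week 8 replicate 1 was left out too. The 7 genes of the MHC class II list had a median of -0.16, or -0.35 without week 10 replicate 3. All 5 plasma cell genes were below 0, with a median of -0.45, or -0.17 without week 10 replicate 3. Of these, Igj lay at 0 to 109.8, while Sdc1 and Xbp1, which epithelium also uses, had log2 fold changes of -0.45 and -0.02. The 7 neutrophil and mast cell genes had a median of 0.69, or 0.15 without week 10 replicate 3. The neutrophil protein S100a8 lay at 0 to 18.7, and lactoferrin, Ltf, which milk epithelium makes too, had a log2 fold change of 0.78. Cpa3, a protease of mast cells, was higher without overlap, with 148, 86.1 and 52.0 at week 8 and 157, 159 and 207 at week 10, a log2 fold change of 0.87 (SE 0.51, n = 3 and 3; 95% interval -0.30 to 2.04). The interferon genes Ifit1, Ifit2 and Ifit3 were low, at 20.8 to 100.2, 56.8 to 181 and 26.6 to 70.9 normalized counts. Ifit3 thus lay under the size of 3 packets, 89.2, in week 10 replicate 3. In the interferon list, with a median of 0.30, or 0.09 without week 10 replicate 3, the log2 fold changes of these 3 genes were 0.85, -0.01 and -0.57. Of its antiviral oligoadenylate synthetase family, singled out after the values were seen, Oasl2 was higher without overlap, with 114, 115 and 87.0 at week 8 and 168, 219 and 250.4 at week 10, and Oas1a lower without overlap, with 20.2, 48.8 and 39.6 at week 8 and 5.03, 12.0 and 0 at week 10. All 3 week 10 values of Oas1a and that of week 8 replicate 1 lie under 3 packets. In week 10 replicate 3 a difference was not detectable at this depth, since its limit of 89.2 covers every week 8 value. The 48.8 and 39.6 of week 8 replicates 2 and 3 lie above the limits of week 10 replicates 1 and 2, 25.9 and 39.1, but 39.6 only narrowly so.

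The circadian clock list had 9 of 18 intervals within 2-fold, 13 members above and 5 below 0 and a median of 0.16. Its levels were 8.75, 8.87 and 8.90 at week 8 and 9.09, 8.98 and 8.88 at week 10. Arntl, which encodes the activator BMAL1, had 135, 45.4 and 119.8 at week 8 and 46.0, 34.1 and 72.0 at week 10, a log2 fold change of -0.98 (SE 0.72, n = 3 and 3), its partner Clock had 0.11, and Npas2, which can stand in for Clock, ranged from 0 to 113. The Arntl values of 34.1 and 72.0 lie under the size of 3 packets in their libraries, 39.1 and 89.2. Beside Dbp, Per2, a repressor of the same loop, was higher without overlap, with 617, 563 and 674 at week 8 and 962, 839 and 721 at week 10, a log2 fold change of 0.45 (SE 0.22, n = 3 and 3; 95% interval -0.04 to 0.94), and was singled out after its values were seen. The hour at which the mice were killed is not given in the sources used here, and its part was not tested.

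Immediate early genes, which respond within minutes to handling of tissue, had a median of -0.23, or -0.07 without week 10 replicate 3, with 0.19 for Fos and 0.13 for Jun, and Fosb was at 0 in 2 of the 6 libraries. Of the 21 tested genes of this list, 9 were above 0 and 12 below. Dnaja1, a heat shock cochaperone singled out after its values were seen, was higher without overlap, with 729, 807 and 582 at week 8 and 882, 811 and 1036 at week 10. The weeks were barely apart in it, at 811 against 807. Ribosomal protein genes had a median of -0.15, or -0.06 without that library, with 15 of 25 intervals within 2-fold and log2 fold changes of -0.17, 0.00 and -0.08 for Rpl3, Rpl4 and Rpl5. The nerve list had a median of -0.23, or -0.33 without week 10 replicate 3, and its myelin protein Mbp had a log2 fold change of 0.27. The globins Hba-a1, Hbb-b1 and Hbb-b2 of red cells, whose near copies make their counts uncertain, had log2 fold changes of 0.17, 0.15 and -0.11, and amylase, Amy1, had -0.06. None of the 12 genes of the epidermis and hair list reached the level needed for testing.

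**Figure D4:**
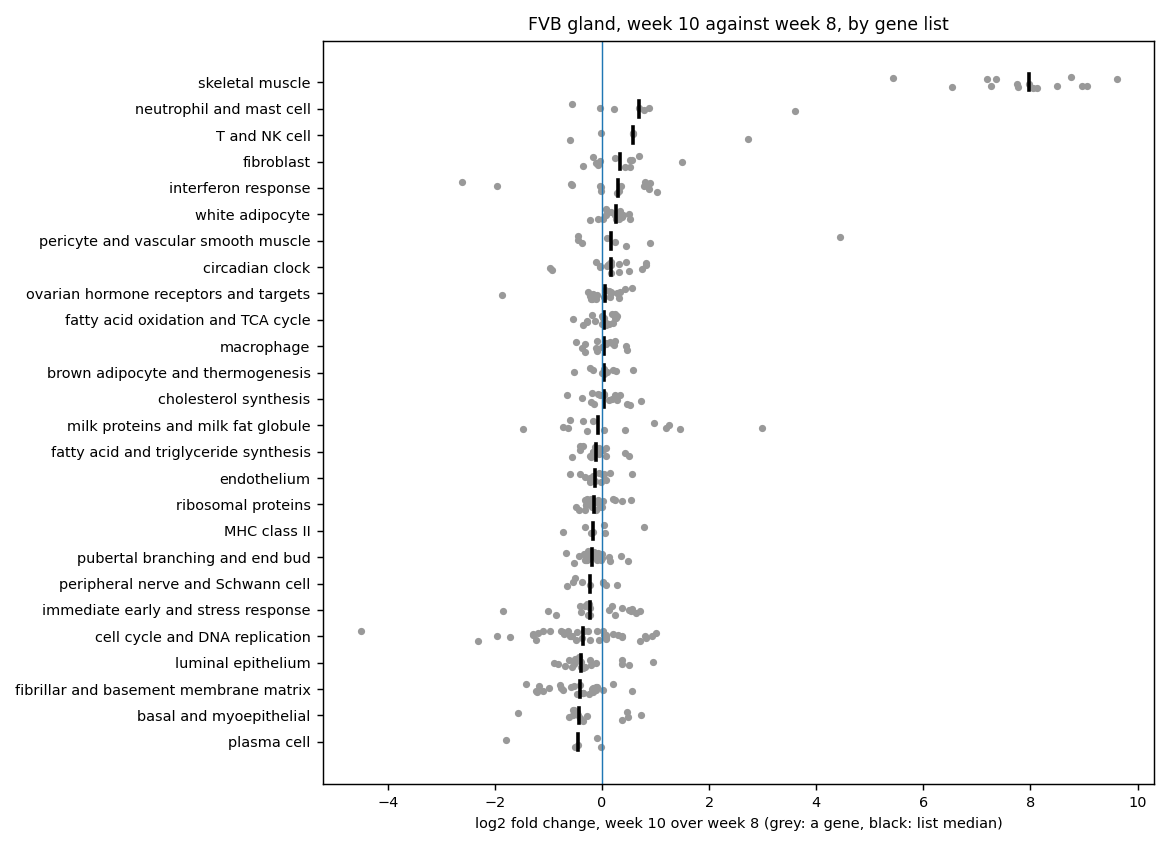
Log2 fold change, week 10 over week 8, of each tested gene (grey) by list, with the list median in black, for lists with at least 5 tested genes. Apart from the skeletal muscle list at 5.44 to 9.61, the medians lie between -0.45 and 0.69.

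Skeletal muscle transcripts gave the largest list median, which rested on 1 library. All 15 tested genes had log2 fold changes above 0, at 5.44 to 9.61 with a median of 7.98, and an unadjusted p under 0.05, while none was called and the weeks overlapped for every one. Acta1, the actin of skeletal muscle, had normalized counts of 121, 50.0 and 539 at week 8 and 63.2, 114 and 108267 at week 10. Ckm, the muscle creatine kinase, had 73.2, 24.4 and 119 at week 8 and 10.1, 0 and 60592 at week 10, and Tnnt3, a fast troponin T, had 25.2, 6.98 and 49.7 at week 8 and 18.7, 0 and 40921 at week 10. In each the value of week 10 replicate 3 lay far above those of the other 5 mice. Without that library 0 of 15 were above 0 and the median was -2.45. The size of this drop is uncertain, since many of the values behind it are near the floor. For Ckm and Tnnt3, the values of week 10 replicates 1 and 2 lie under the size of 3 packets, 25.9 and 39.1. Those of week 8 replicate 2 lie under its 27.9, and Tnnt3 in week 8 replicate 1 lies under 68.1. The level of the list was 15.05, 13.01 and 2.82 at week 6 and 14.57, 8.79 and 6.60 at week 12, so high libraries were seen at those weeks too. Week 10 replicate 3 was also the lowest or next lowest mouse for Krt8, Krt5 and Mki67, and the part of its muscle content in these values was not tested.

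**Figure D5:**
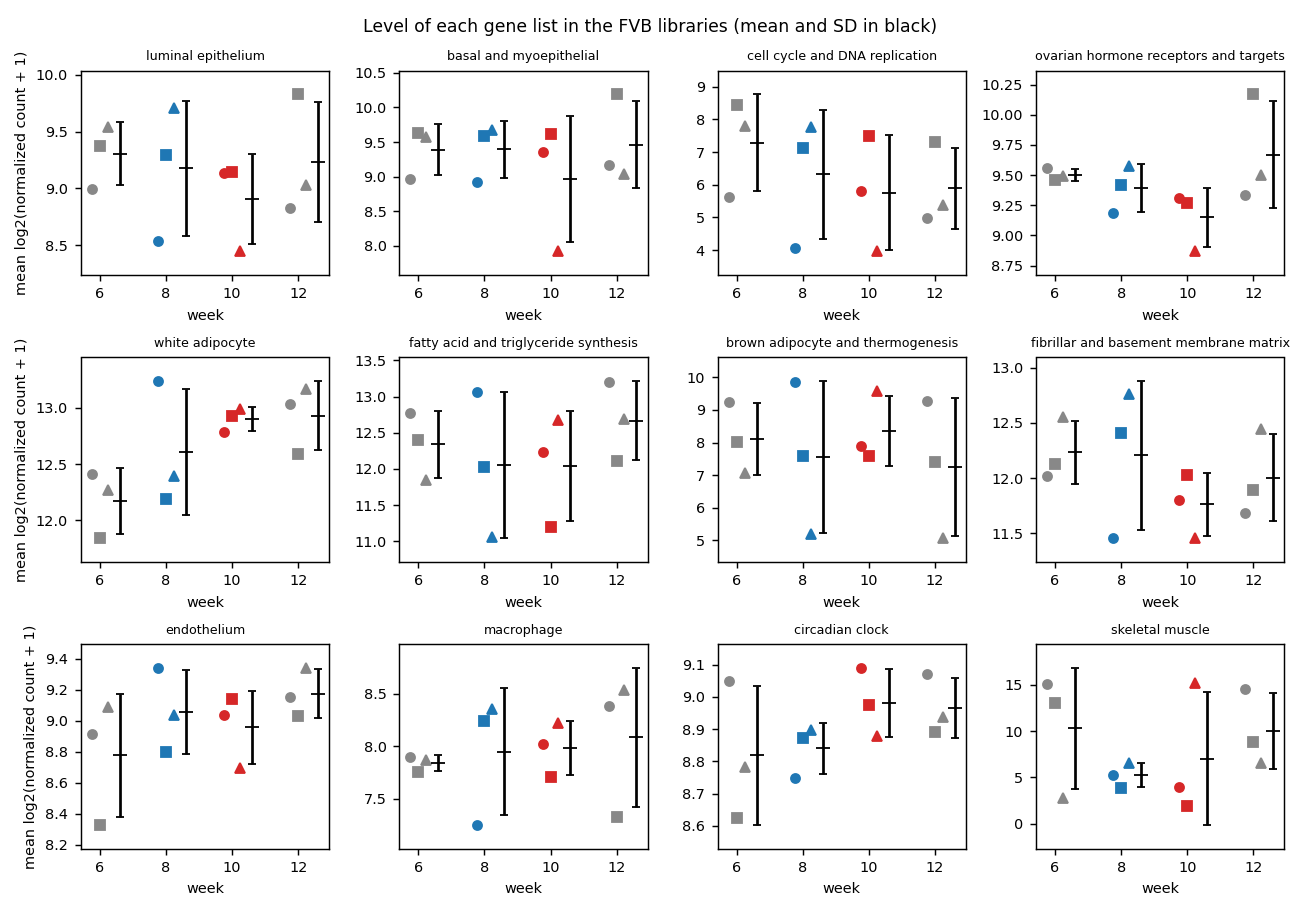
Level of 12 gene lists, as the mean log2(normalized count + 1) of their tested members, in the 12 FVB libraries by week (colored points weeks 8 and 10, grey weeks 6 and 12, symbol by replicate, black mean and SD of 3 mice). The ranges of weeks 8 and 10 overlap in all 12 lists, and skeletal muscle is high in week 10 replicate 3 and in libraries of weeks 6 and 12.

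Genes without reads in all 3 libraries of a week were counted as well. Of the tested genes, 97 had no read in all 3 week 10 libraries and 5 in all 3 week 8 libraries, and 29 of the 97 had reads in every week 8 library, against 0 the other way. These counts had unlike ceilings. Week 8 replicate 3 had only 16 tested genes without a read, so no more than 16 could lack reads in all 3 week 8 libraries. The lowest number in a week 10 library was 407. All 3 week 10 libraries have a packet size of 12 or more, while week 8 replicate 3 has none, and the part of this difference in the zeros was not tested. Trip13, a mitotic checkpoint ATPase on chr13:74049910-74075215 (mm9), is one of the 29. It had 39, 25 and 55 reads at week 8, or 49.2, 29.1 and 62.2 normalized counts, and 0 in each week 10 library. A count of 0 allows up to 3 counts, or 2.16, 3.01 and 4.70 normalized counts in the 3 week 10 libraries, and if 3 packets are allowed the limits are the 25.9, 39.1 and 89.2 given above, and both kinds of limit cover counting error only. The week 8 values lie within the widest of these limits, so with packets as the unit a difference was not detectable at this depth in that library, and no fold change is given. All 3 lie above the 25.9 of week 10 replicate 1, and 49.2 and 62.2 but not 29.1 lie above the 39.1 of replicate 2. The value of 49.2 is itself under 3 packets, 68.1, in week 8 replicate 1. Rab6b, a small GTPase of vesicle traffic, had 67, 37 and 29 reads at week 8 and 0 at week 10. Neither passed edgeR's quasi-likelihood test (adjusted p = 0.9998 for both by Benjamini-Hochberg).

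Whether the 2 weeks of difference in FVB glands differed from that in PyMT glands was asked with a model over all 24 samples and their 8 groups, which uses the same FVB mice. Trip13 alone passed (1 of 14918 genes, 0.0067%; adjusted p = 0.0126 by Benjamini-Hochberg, quasi-likelihood test of edgeR), and 533 genes (3.57%) had an unadjusted p under 0.05. Its normalized count in PyMT glands was 123 ± 52.1 (SD, n = 3) at week 8 against 109 ± 29.0 (SD, n = 3) at week 10, while FVB glands had 46.8 ± 16.7 (SD, n = 3) at week 8 and 0 later. In the other FVB mice it was 20.9, 89.5 and 63.4 at week 6 and 10.8, 17.6 and 24.1 at week 12. With only the 12 samples of weeks 8 and 10 in the fit, 0 genes passed (366 at an unadjusted p under 0.05). Between week 12 and week 6 of FVB, 0 genes were DEGs as well (0% of those tested), with 820 (5.5%) at an unadjusted p under 0.05 by edgeR's quasi-likelihood test, and DESeq2 called 61.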

How the data were processed

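RNA of 3 FVB mammary glands at week 8 and 3 at week 10 was analysed, with the other 18 samples of the series in the filter and the named fits. Per the labels and methods, the authors removed adapters, mapped to mm9 by GSNAP and used HTSeq for gene counts, which they deposited raw, 1 column per sample. The strand setting of the counting is not given in the sources used here, so overlapping genes are uncertain. Symbols and mm9 coordinates came from GENCODE M1, which matched 37205 of 37991 identifiers.

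Genes that reached a CPM of 1 in no fewer than 12 of 24 samples were tested by edgeR's quasi-likelihood test (TMM scaling, Benjamini-Hochberg adjustment; edgeR 4.0.16, R 4.3.3). The SE is the log2 fold change over the square root of F, and intervals are 95%. Normalized counts used size factors of DESeq2 1.42.0, with 1 added before log2. limma 3.58.1, Python 3.11.15, NumPy 2.4.6, SciPy 1.17.1, pandas 2.3.3 and matplotlib 3.10.9 were also used. The fit was tested on simulated data with the spread estimated in these 6 libraries. It recovered 198 of 600 genes changed 4-fold (33%) and 472 of 600 changed 16-fold (78.7%). Of its 211 and 504 calls, 13 and 32 were wrong. Most 4-fold changes were thus missed at this spread. The packet size was the peak, from 5 counts up, of a histogram of genes over counts after Gaussian smoothing (SD 1.5 reads). Intervals include the spread between mice, while the limits for counts of 0 cover counting error only. Whether the authors removed duplicate reads is not given in the sources used here.

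Named genes were all DEGs, then the 15 per direction of smallest unadjusted p whose normalized count averaged 100 or more, with no overlap and no 0, the first 3 tested genes of each of 30 lists (499 entries, 426 tested), and genes called in the test against PyMT. Some genes that this rule names are not reported here. The members and lists were chosen with earlier results of these data known. Replicate numbers come from the titles. Same-numbered samples of the 2 weeks had correlations of their deviations of -0.0928, 0.116 and -0.187, so the numbers were not taken to pair mice. Alternatives were other tests, scalings, filters, fits of 12 or 24 samples, a replicate block, counts over the packet size and each replicate left out. Sequences were not used here.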

Additional observations from a re-analysis of the deposited data

Results flagged for a closer look

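Trip13 stood out because the difference between weeks 8 and 10 in FVB glands differed from that in PyMT glands by the test of the difference itself. The fitted log2 change in FVB minus that in PyMT was -8.43 (SE 1.18, n = 3 per group), with a Benjamini-Hochberg adjusted p = 0.0126 in the quasi-likelihood test of edgeR. Because all 3 FVB libraries of week 10 had no read of it, this value depends on the fit's treatment of zeros and is not a size of the change. The packet sizes of those libraries, 12, 13 and 19 reads, stand beside it, and their part was not tested.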

How the results depend on the processing

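The count of 0 DEGs between weeks 10 and 8 was 2 by the likelihood ratio test (Trip13 and Rab6b), 1 by DESeq2 (Rab6b) and 1 with all 24 samples (Trip13), each at 0 in every week 10 library. It was 0 without any 1 replicate (lowest 0, highest 0). An alternative chosen after seeing the data, without week 10 replicate 3 and week 8 replicate 1, gave 1 (Lrrc15, log2 fold change -3.24). The count of 1 gene for the FVB against PyMT change was 8 by the likelihood ratio test, 7 by DESeq2 and 0 with only 12 samples, and 1 to 10 with 1 replicate left out, with 10 without FVB week 10 replicate 1 and 2 without replicate 2. Between weeks 12 and 6, DESeq2 gave 61 and leaving out 1 replicate 0 to 4, with 4 without FVB week 6 replicate 1 and 3 without FVB week 12 replicate 2. With a replicate block, the counts were 0 (136 at an unadjusted p under 0.05), 1 and 8 for the 3 comparisons. Nothing in the sources ties same-numbered mice together. Deviations of same-numbered mice correlated at 0.396, 0.0984 and 0.320 between weeks 6 and 12, where week 12 replicates 1 and 3 but not replicate 2 correlated best with their own number, and neither these nor those of weeks 8 and 10 were all above 0.1.

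The direction of Acta1, Ckm and Tnnt3 rested on week 10 replicate 3. Their log2 fold changes were -1.42, -3.76 and -1.51 without it, -1.42, -3.69 and -1.44 over the 12 FVB samples less it (also chosen after seeing the data), -1.73, -3.73 and -1.55 without it and week 8 replicate 1, and -0.037, -2.55 and -0.66 by limma voom with sample quality weights, which gives unlike libraries less weight. Over all fits with 1 replicate left out they ran from -1.42 to 8.72, -3.76 to 8.72 and -1.51 to 9.72. Ckm had -1.16 with the replicate block. The values of Ckm and Tnnt3 in week 10 replicates 1 and 2 lie under the size of 3 packets, so the size of their negative values is uncertain. The difference of the circadian clock level, 0.141, was 0.036 with library size as the only scaling; the other 28 list levels moved by less than the SD. Depth and packet size limit genes under a mean normalized count of 100 most. The cause of the other differences between settings was not tested.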
